A study of Homo sapiens with 19 samples.

Results

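TGF-β1, TGF-β2, TGF-β3, BMP2, BMP4, BMP6 and the inhibin βA chain are secreted ligands of the TGF-β superfamily, and SMAD7 is the inhibitory SMAD that switches their signals off. The 8 genes (TGFB1, TGFB2, TGFB3, BMP2, BMP4, BMP6, INHBA and SMAD7) were taken from the 31033 gene names of the array by exact match of the name, and they were picked for how their normalized log2 levels ran across the 8 groups of samples. Their levels and differences are therefore given as a description. How many of them passed the call rule used for all genes is set beside the share of all genes that did, with nothing read from it, and test results are read only for 110 other genes of the pathway.

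The study asked how vitamin C (vit C) alters gene expression in macrophage-like cells. THP-1, a human monocytic leukaemia cell line, was differentiated with 30 nM PMA (phorbol myristate acetate), rested, and then either left untreated (UT) or given 0.1 mM vit C. RNA was taken after 8, 24, 48 or 96 h and each sample was hybridised to 1 one-colour Agilent array, 19 arrays in all. The groups held 2, 3, 2 and 3 UT arrays and 3, 2, 2 and 2 vit C arrays at the 4 time points. Every group, UT included, carried the PMA differentiation, and all cells came from 1 cell line grown in separate flasks, so the spread between arrays is that between cultures of this line.

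TGF-β family ligands are made as dimers that bind pairs of type I and type II serine/threonine kinase receptors on the cell surface. The TGF-βs and activin A, the dimer of the INHBA product, mainly drive phosphorylation of SMAD2 and SMAD3, while BMPs mainly drive SMAD1, SMAD5 and SMAD9, and both arms join SMAD4 to switch genes on in the nucleus. In macrophages TGF-β restrains inflammatory genes, activin A marks some inflammatory states, and BMP6 is known in the liver as the signal that turns on hepcidin (HAMP), the hormone of iron balance.

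Each gene was read by oligonucleotides of 60 bases, and a level below is the signal of such a probe in log2 units relative to the 75th percentile of its own array, so that 0 is the 75th percentile and levels of different probes are not comparable. Probes of some of the ligands are shown from the array's own design, 5′ to 3′ and in lower case throughout, because a probe sees only RNA that holds its bases. In RefSeq genes on GRCh38.p14, TGFB1 lies on chromosome 19 from 41330323 to 41353922, TGFB3 on chromosome 14 from 75958097 to 75983011, BMP2 on chromosome 20 from 6767686 to 6780246, BMP4 on chromosome 14 from 53949736 to 53956891 and INHBA on chromosome 7 from 41685114 to 41705406. For TGFB3 the sequence shown is that of the dimmer of its 2 probes. The TGFB3 levels below are those of the brighter probe, which is not shown, unless the dimmer probe is named.
TGFB1: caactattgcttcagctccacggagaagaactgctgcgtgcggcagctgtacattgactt
TGFB3: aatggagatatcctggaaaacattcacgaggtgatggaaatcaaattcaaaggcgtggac
BMP2: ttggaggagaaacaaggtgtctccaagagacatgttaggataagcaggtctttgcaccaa
BMP4: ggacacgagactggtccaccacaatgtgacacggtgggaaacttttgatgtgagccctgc
INHBA: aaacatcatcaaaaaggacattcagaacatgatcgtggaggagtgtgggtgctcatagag

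The labelled cell type was checked against marker genes. Of 10 macrophage markers, 9 were well above background on all 19 arrays, and LYZ on 18; CSF1R, the receptor of the macrophage growth factor, ranged from 7.92 to 8.66. The fibroblast collagen gene COL1A2, the epithelial cadherin CDH1, the T cell gene CD3D and the endothelial cadherin CDH5 were well above background on 0 arrays. Markers of other cell types that were nevertheless measured on all 19 arrays included PDGFRA, THY1, KRT8, KRT18, CD3E and CD79A, and whether any of the RNA came from other cells was not tested. The 75th percentile signal ran from 290.2 to 902.3 and was highest on both vit C arrays at 96 h, and between 57.5% and 72.8% of probes were well above background per array. The arrays lay on 4 slides. All UT arrays at 8, 24 and 48 h and 1 UT array at 96 h were on slide 1, the vit C arrays at 8 and 24 h and 1 at 48 h were on slide 2 with the other UT arrays at 96 h, and the remaining vit C arrays were on slides 3 and 4. No slide held UT and vit C arrays of the same time point, so slide and vit C cannot be told apart within a time point. A level of RNA per array also cannot separate fewer cells that make a transcript from less transcript per cell.

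Of the 8 genes, 7 were well above background on all 19 arrays. BMP4 was well above background on 7 arrays. INHBA and TGFB3 covered the widest ranges over the time course, 5.19 and 7.78 log2 units between their lowest and highest arrays, and SMAD7 the narrowest, 1.27. The plot of the 8 genes by array shows these time courses.

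**Figure D1:**
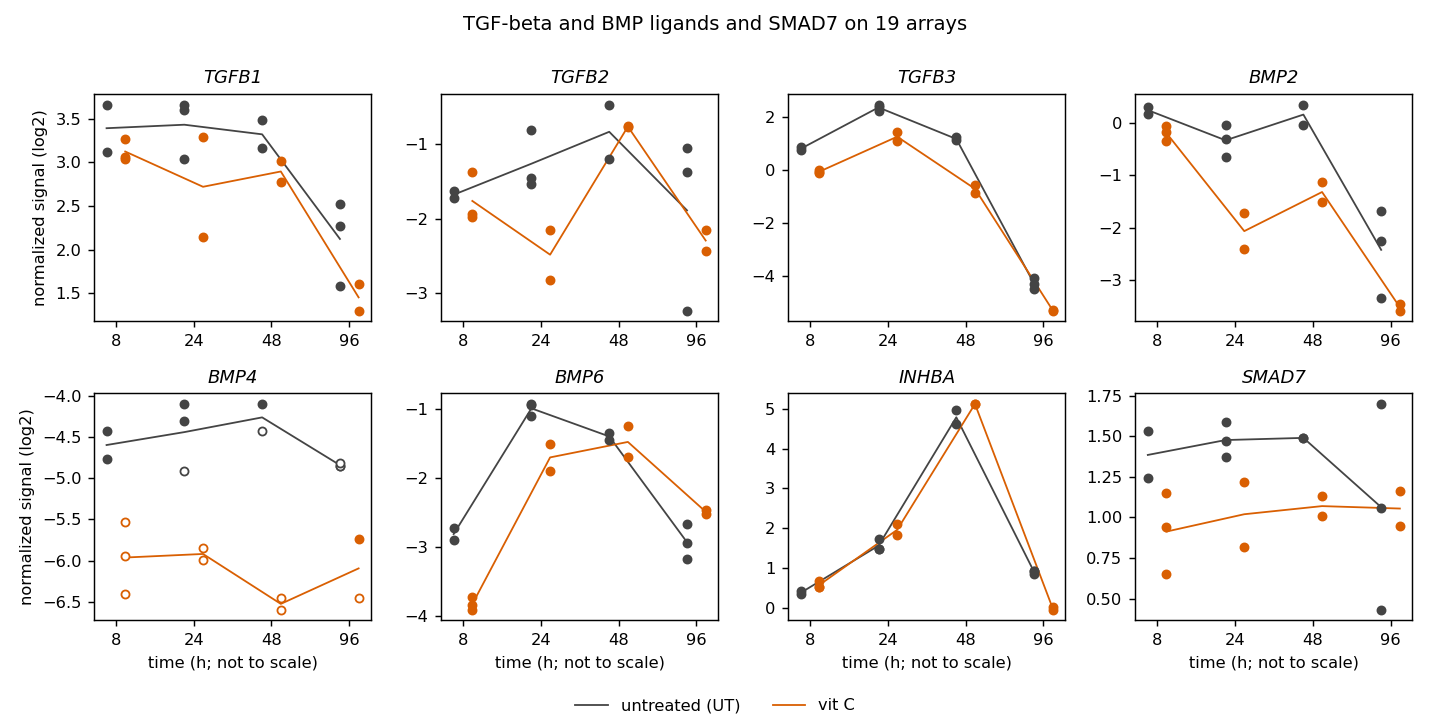
Normalized log2 signal (y axis, own scale for each gene) of the brightest probe of each of the 8 genes at 8, 24, 48 and 96 h (x axis, evenly spaced). Each point is 1 array, dark grey for UT and orange for vit C, filled where the spot was well above background and open where it was not, and lines join group means. TGFB3 is lowest at 96 h in both treatments, INHBA is highest at 48 h in both treatments, and the BMP4 points of vit C cells lie below those of UT cells at every time point.

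TGFB3, a TGF-β ligand best known from tissue repair and palate development, was highest at 24 h and lowest at 96 h in both treatments. In UT cells the arrays read 0.88 and 0.75 at 8 h, 2.25, 2.39 and 2.48 at 24 h, 1.13 and 1.24 at 48 h, and -4.47, -4.05 and -4.30 at 96 h. In vit C cells they read -0.08, -0.09 and 0.03 at 8 h, 1.11 and 1.43 at 24 h, -0.54 and -0.85 at 48 h, and -5.30 and -5.26 at 96 h. Every vit C array was thus below every UT array of its time point. From 8 to 96 h the mean was 33.9-fold lower in UT cells (a log2 difference of -5.09, SE 0.18) and 37.6-fold lower in vit C cells (-5.23, SE 0.18), and the raw signal of this probe spanned 2400 to 17.1 intensity units. With a normexp background correction these log2 differences were -3.34 and -3.43, and the dimmer probe, not well above background at 96 h, allows only levels at least 1.55-fold and at least 2.61-fold lower.

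In TGFB3 the vit C minus UT difference went from -0.86 (SE 0.18) at 8 h through -1.10 (SE 0.18) at 24 h to -1.88 (SE 0.20) at 48 h, and it stood at -1.01 (SE 0.18) for the 96 h arrays. The widest gap was thus that at 48 h, a 3.67-fold lower mean with vit C. In the order of the 8 groups, UT cells at 24 h stood first at 2.37 ± 0.12 (SD, n = 3), 1.10 above vit C cells at 24 h. The next neighbours, vit C cells at 24 h and UT cells at 48 h, were 0.09 apart, which is within their spread, and all later steps in the order were wider than the spread of the groups on either side. The dimmer TGFB3 probe gave -0.13, -2.02, -2.07 and -1.05 for vit C minus UT at the 4 time points, but it was not well above background on any vit C array at 48 h or on any array at 96 h, so at 48 h it allows only a level at least 1.90-fold lower. The 96 h levels of TGFB3 lay so close to background that with signals floored at 20 units the difference there was -0.20.

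INHBA, which encodes the chain that pairs to form activin A, was highest at 48 h. In UT cells it read 0.34 and 0.41 at 8 h, 1.73, 1.48 and 1.47 at 24 h, 4.97 and 4.61 at 48 h, and 0.92, 0.93 and 0.85 at 96 h. In vit C cells it read 0.53, 0.68 and 0.51 at 8 h, 2.10 and 1.82 at 24 h, 5.13 and 5.12 at 48 h, and -0.06 and 0.02 at 96 h. The arrays at 48 h stood far above those of every other time point in both treatments, while at 96 h the difference from 8 h was 0.53 in UT cells and -0.59 in vit C cells. From 8 to 48 h the mean was 21.3-fold higher in UT cells (4.41, SE 0.19) and 23.5-fold higher in vit C cells (4.55, SE 0.17).

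The vit C arrays of INHBA were all above the UT arrays at 8, 24 and 48 h, by 0.20 (SE 0.17), 0.40 (SE 0.17) and 0.34 (SE 0.19), and all below them at 96 h, with a difference of -0.92 (SE 0.17), a 1.90-fold lower mean. The 48 h value was 0.51 without UT replicate 1 and 0.16 without UT replicate 2. Its 8 group means could be ordered with every step wider than the spread of its neighbours, from vit C cells at 48 h (5.13) down to vit C cells at 96 h (-0.02 ± 0.06, SD, n = 2).

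BMP6 was low at 8 h and high at 24 and 48 h in both treatments. The UT arrays read -2.90 and -2.73 at 8 h, -0.94, -0.92 and -1.10 at 24 h, -1.34 and -1.45 at 48 h, and -2.95, -3.18 and -2.67 at 96 h. The vit C arrays read -3.73, -3.85 and -3.92 at 8 h, -1.90 and -1.50 at 24 h, -1.25 and -1.70 at 48 h, and -2.52 and -2.46 at 96 h. The vit C arrays were all lower than the UT arrays at 8 and 24 h, overlapped with them at 48 h and were all higher at 96 h. Vit C minus UT was -1.02 (SE 0.20), -0.71 (SE 0.20), -0.08 (SE 0.22) and 0.44 (SE 0.20) at the 4 time points. Relative to 8 h, BMP6 was higher by 1.83 at 24 h in UT cells and by 2.13 in vit C cells (SE 0.20 for both), while at 96 h the difference from 8 h was -0.12 in UT cells and 1.34 in vit C cells. The lowest BMP6 signals were 29.6 units, and with a normexp background correction the 8 h difference between vit C and UT shrank to -0.43 and the 96 h difference to 0.03. Under the same correction the 24 h differences from 8 h were 1.25 in UT and 1.11 in vit C cells, and the 96 h difference in vit C cells was 0.39.

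BMP2, a ligand of bone and vessel formation, was lower with vit C at all 4 time points and lowest at 96 h. UT arrays read 0.31 and 0.18 at 8 h, -0.65, -0.31 and -0.03 at 24 h, -0.03 and 0.35 at 48 h, and -1.67, -2.24 and -3.34 at 96 h. Vit C arrays read -0.35, -0.05 and -0.18 at 8 h, -1.72 and -2.40 at 24 h, -1.13 and -1.50 at 48 h, and -3.44 and -3.58 at 96 h. No vit C array overlapped with the UT arrays of its time point, but at 96 h UT replicate 3, at -3.34, was next to the vit C arrays, and without it the 96 h difference was -1.56 in place of -1.10. Vit C minus UT was -0.43 (SE 0.38), -1.73 (SE 0.38), -1.48 (SE 0.41) and -1.10 (SE 0.38). With slide as a fixed term, which rests on the 3 UT arrays at 96 h, the BMP2 differences at 8, 24 and 48 h became 0.69, -0.61 and -0.17, a turned direction at 8 h.

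BMP4 was the dimmest of the 8 genes, with raw signals of 3.79 to 27.2 units. Both UT arrays at 8 h cleared the background test, as did 2 of the 3 at 24 h, 1 of the 2 at 48 h and 1 of the 3 at 96 h, whereas among vit C arrays only 1, at 96 h, did so. The measured group means were -4.60, -4.45, -4.26 and -4.84 in UT cells and -5.96, -5.92, -6.53 and -6.09 in vit C cells, and no vit C array overlapped with the UT arrays of its time point. Because the vit C arrays at 8 h give only a bound, BMP4 was at least 1.24-fold higher in UT than in vit C cells there on the scale used here. This bound sets the mean of the UT arrays against, on each vit C array, the higher of its lowest probe signal well above background and the BMP4 signal itself. No bound is given at later times, when some UT arrays were themselves not well above background. With a normexp background correction the BMP4 differences were -0.03, -0.48, -0.26 and -0.79, and with signals floored at 20 units they were -0.02, -0.18, -0.21 and 0.00, so that neither setting keeps the 8 h bound.

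TGFB1, the main immune-regulating ligand of the family, covered 2.36 log2 units between its lowest and highest arrays. UT arrays read 3.66 and 3.12 at 8 h, 3.04, 3.60 and 3.65 at 24 h, 3.48 and 3.16 at 48 h, and 2.27, 2.52 and 1.58 at 96 h. Vit C arrays read 3.06, 3.04 and 3.27 at 8 h, 3.29 and 2.15 at 24 h, 2.77 and 3.02 at 48 h, and 1.30 and 1.61 at 96 h. The treatments overlapped at 8, 24 and 96 h, and in both treatments the 96 h arrays were the lowest, with a difference from 8 h of -1.27 (SE 0.34) in UT cells and of -1.66 (SE 0.34) in vit C cells. Vit C minus UT was -0.27 (SE 0.34), -0.71 (SE 0.34), -0.42 (SE 0.38) and -0.66 (SE 0.34). The 24 h value rested on vit C replicate 2, and it was -0.14 without that array and -1.28 without vit C replicate 1.

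TGFB2 was spread widely between arrays of a group. UT arrays at 96 h ranged from -3.24 to -1.05 (mean -1.89 ± 1.18, SD, n = 3), and vit C minus UT was -0.08, -1.22, 0.07 and -0.40 (SE 0.50, 0.50, 0.55 and 0.50). Its vit C arrays lay below all UT arrays at 24 h alone, where the vit C arrays read -2.15 and -2.82 and the UT arrays -0.81, -1.53 and -1.45. A second, dimmer TGFB2 probe had the opposite sign at 48 h (-0.55) and at 96 h (0.06). With slide as a fixed term the TGFB2 differences at 8, 24 and 48 h became -2.11, -3.24 and -1.95.

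SMAD7, which blocks the receptors and marks them for breakdown, stayed within 0.43 to 1.70 on all arrays. Vit C minus UT was -0.47, -0.45 and -0.42 (SE 0.29, 0.29 and 0.32) at the first 3 time points and -0.01 (SE 0.29) at the last. The vit C arrays lay below all UT arrays at 8, 24 and 48 h, at 0.65 to 1.15 against 1.24 and 1.53 at 8 h for example, and overlapped with them at 96 h, where UT arrays ran from 0.43 to 1.70.

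Set side by side, 7, 7, 6 and 7 of the 8 genes had a lower mean with vit C at 8, 24, 48 and 96 h. Their median differences were -0.45, -0.91, -0.42 and -0.79, where the medians over all genes were -0.05, -0.13, -0.02 and -0.15. Vit C arrays lay wholly below UT arrays for 5, 6, 5 and 4 of the 8 genes, where 24.3%, 18.1%, 28.7% and 26.1% of all genes did so, and wholly above for 1 gene at each of the 4 time points, INHBA at 8, 24 and 48 h and BMP6 at 96 h, where 14.7%, 12.2%, 22% and 10.7% of all genes did so. By the call rule (in limma, an absolute log2 difference no smaller than 1 with a Benjamini-Hochberg adjusted p, written q, no larger than 0.05) 1 gene was called lower at 8 h (BMP6; 0.227% of all genes tested), 3 at 24 h (TGFB3, BMP2 and BMP4; 0.835%), 2 at 48 h (TGFB3 and BMP4; 1.55%) and 2 at 96 h (TGFB3 and BMP4; 10.1%). Since the genes were chosen from these values, the counts describe the choice, and the 4 comparisons share the fit but no arrays. With signals floored at 20 units the 96 h differences of TGFB3 and BMP4 were -0.20 and 0.00, and over all genes the number called either way at 96 h was 3374 as scaled here and 1002 after quantile normalization. TGFB2 was left out of the call at 48 and 96 h for its opposing probes.

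**Figure D2:**
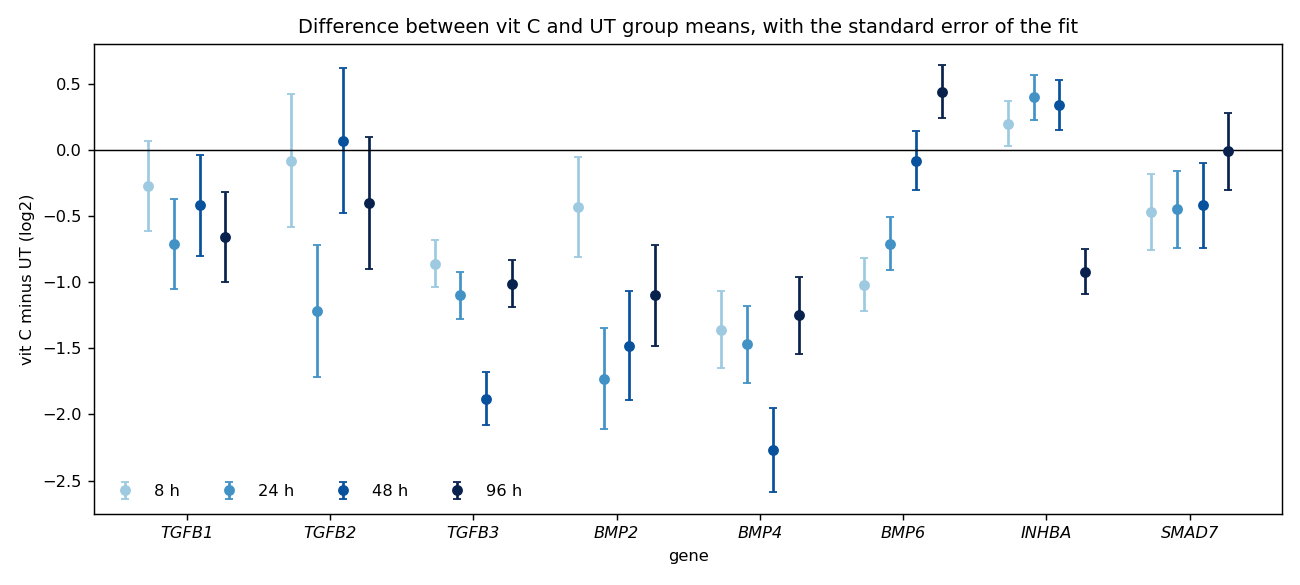
Vit C mean minus UT mean on the log2 scale (y axis) for each of the 8 genes (x axis) at the 4 time points, 8 h in the lightest and 96 h in the darkest blue, and bars are the standard error of the fit to all 19 arrays and the black line marks 0. TGFB3, BMP2 and BMP4 lie below 0 at all 4 time points, and INHBA and BMP6 lie on different sides of 0 at 8 h and at 96 h.

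Over time, 3 of the 8 genes were called higher in UT cells at 24 h than at 8 h (TGFB3, BMP6 and INHBA; 1.37% of all genes tested), 2 higher at 48 h (BMP6 and INHBA; 5.53%) and 3 lower at 96 h (TGFB1, TGFB3 and BMP2; 7.19%). In vit C cells 3 were called higher at 24 h (TGFB3, BMP6 and INHBA; 2.95%) and 1 lower (BMP2; 2.66%), 2 higher at 48 h (BMP6 and INHBA; 8.15%) and 1 lower (TGFB3, by its dimmer probe; 4.98%), and 1 higher at 96 h (BMP6; 10.9%) and 3 lower (TGFB1, TGFB3 and BMP2; 18%). That TGFB3 call came from a difference of -1.24 in a probe that was not well above background on either vit C array at 48 h, which bounds the level only as at least 1.07-fold lower, and the brightest probe gave -0.64. The 2 time courses share no arrays, but within each the comparisons share the 8 h arrays.

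The genes whose levels ran most like each member over the 19 arrays were sought among 17218 genes well above background on all arrays. BMP4 was left out, since it was not well above background on all arrays. The search is a description without a test, since arrays share time point, treatment and slide. TGFB3 ran closest to MMP19, a matrix metalloproteinase (Pearson r = 0.992), and ICAM1, a leukocyte adhesion molecule (0.987). INHBA ran closest to the transcript AK001903 (0.990) and VASN (0.952), which encodes a cell surface protein that binds TGF-β. BMP6 ran closest to CXorf6 (0.949) and SOCS3, a cytokine signalling inhibitor (0.949). For BMP2 the nearest were CITED4 (0.949) and NTSR1 (0.949), for TGFB1 CD276 (0.968) and PPP1R15A (0.951), for SMAD7 the transcript HsapiAL049419 (0.899) and NDFIP2 (0.892), and for TGFB2, which had the weakest match, ENST00000304963 (0.825) and AK090405 (0.764). Among the 8 genes themselves the closest pair was TGFB1 and BMP2 (0.91), followed by TGFB1 and TGFB3 (0.84), while the r of BMP2 and BMP6 was 0.05.

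The rest of the pathway was described by 7 lists that hold 111 genes, of which 110 were on the array and MSTN was not matched. They are other ligands, receptors and co-receptors, SMAD transducers and partners, intracellular and membrane inhibitors, extracellular inhibitors, latency and activation factors, and target genes. With vit C, 1 pathway gene rose and 1 fell at 8 h among 85 tested (0.553% of all genes were called), 0 rose and 3 fell at 24 h among 95 (1.68%), 2 rose and 1 fell at 48 h among 91 (3.65%), and 4 rose and 9 fell at 96 h among 91 (12.8%). Of the 13 calls at 96 h, 4 were of probes near background (BMP3, SOSTDC1, TLL1 and CDKN2B), all lower. At 96 h the split depended on the scaling: with quantile normalization it was 5 higher and 4 lower. Beside the probe rule that removes genes with opposing probes, this left between 15 and 25 of the 110 genes untested at a time point.

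No receptor or co-receptor passed the test at any of the 4 time points, among 11 or 12 tested at each, in limma with Benjamini-Hochberg adjustment, and 0 did so at an unadjusted p with the same fold threshold. The receptors with the largest average difference among those measured on all arrays were ACVR1B, a type I receptor for activin, and TGFBR1, the type I receptor for TGF-β. ACVR1B gave -0.20, -0.61, -0.24 and -0.47 at the 4 time points (SE 0.27, 0.27, 0.30 and 0.27, with q = 0.277, 0.832 and 0.277 at the last 3 and opposing probes at the first). TGFBR1 gave -0.62, -0.32, 0.13 and -0.14 (SE 0.30, 0.30, 0.33 and 0.30, q = 0.424, 0.544, 0.976 and 0.792).

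HAMP, ID1 and ID3 were the 3 genes of the 110 whose vit C effect differed between the time points in the limma F test (1.01% of all genes passed it). HAMP encodes hepcidin, and ID1 and ID3 encode inhibitors of DNA binding that BMP signals switch on in many cell types. The start of the HAMP gene carries the short GC-rich BMP response element, and the 250 bases before its start are shown (RefSeq, GRCh38.p14, chr19:35282278-35282527, + strand) with the letters GGCGCC in capitals.
HAMP: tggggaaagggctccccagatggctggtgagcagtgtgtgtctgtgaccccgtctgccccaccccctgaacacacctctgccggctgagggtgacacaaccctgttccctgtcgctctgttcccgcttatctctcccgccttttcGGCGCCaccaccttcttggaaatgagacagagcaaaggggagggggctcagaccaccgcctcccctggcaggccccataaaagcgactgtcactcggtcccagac
The motif GGCGCC, which reads the same on both strands, lay at bases 146 to 151 of the stretch shown, and 16.4% of 35116 promoter windows of this length held it. It was not among the same 250 bases of ID1 or ID3. Of the 8 ligand and SMAD7 genes, BMP4 held it in 1 window, at bases 19 to 24. A letter match of this kind is a description of the sequence and not of binding.

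HAMP was lower with vit C at 8, 24 and 48 h and higher at 96 h. UT arrays read 0.66 and 0.48 at 8 h, 0.51, 0.33 and 0.55 at 24 h, -1.34 and -1.39 at 48 h, and -1.92, -2.05 and -1.93 at 96 h. Vit C arrays read -0.50, -0.82 and -0.35 at 8 h, -0.63 and -0.51 at 24 h, -3.07 and -2.96 at 48 h, and -0.23 and -0.43 at 96 h. The treatments did not overlap at any time point, and the order turned between 48 and 96 h. Limma gave -1.13 (SE 0.18, q = 0.0190) at 8 h, -1.03 (SE 0.18, q = 0.0117) at 24 h, -1.65 (SE 0.20, q = 0.000662) at 48 h and 1.64 (SE 0.18, q = 0.000138) at 96 h. The 48 and 96 h calls held with any 1 array left out, whereas that at 8 h was lost without UT replicate 1 or 2 or vit C replicate 1 or 2 (-1.23 to -1.0) and that at 24 h without UT replicate 3 or vit C replicate 1 or 2 (-1.10 to -0.98). With a normexp background correction the differences were -1.0, -0.87 and -0.93 at 8, 24 and 48 h, and these 3 calls were lost. The limma F test for a vit C effect that differs between time points gave q = 0.000143 for HAMP, and between 0.000111 and 0.00264 with any 1 array left out. In UT cells HAMP fell by 1.94 on the log2 scale from 8 to 48 h (q = 1.85e-05), and in vit C cells it fell by 2.46 over the same time (q = 3.90e-07). From 8 to 96 h it fell by 2.54 in UT cells (q = 2.16e-07), whereas the vit C difference was 0.23 (q = 0.330).

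ID1 rose by 2.41 from 8 to 96 h in UT cells (limma q = 1.04e-06), whereas the vit C difference over that time was 0.82 (q = 0.00752, below the fold threshold). UT arrays read 0.75 and 0.76 at 8 h, 0.99, 0.77 and 0.84 at 24 h, 2.25 and 2.34 at 48 h, and 2.96, 3.05 and 3.49 at 96 h, against 0.23, 0.39 and 0.30, then 0.55 and 0.98, then 1.79 and 1.62, then 1.27 and 0.97 in vit C cells. The gap was widest at 96 h, where ID1 was 4.13-fold lower with vit C (-2.05, SE 0.20, limma q = 6.71e-05), a call that held with any 1 array left out. At 8, 24 and 48 h the differences were -0.45, -0.10 and -0.60 and did not pass (q = 0.373, 0.779 and 0.175), and the F test for a difference between time points gave q = 0.0153, with q up to 0.106 and the call lost without either vit C array at 96 h.

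ID3 went the other way at the start. UT arrays read -1.37 and -1.81 at 8 h and vit C arrays -0.16, -0.48 and -0.49, and ID3 rose by 1.21 with vit C (SE 0.20, limma q = 0.0202). This call was lost without UT replicate 2 or vit C replicate 1 or 2, with differences of 0.99 to 1.43 over the 5 arrays left out in turn, and with normexp (0.87). The difference was 0.78 (q = 0.0693) at 24 h, 0.03 (q = 0.999) at 48 h and -0.83 (q = 0.0280, below the fold threshold) at 96 h, where UT arrays read 0.67, 1.17 and 0.81 and vit C arrays 0.12 and -0.01. The F test gave q = 0.0126, with q up to 0.0683 and the call lost without either vit C array at 96 h. From 8 to 96 h ID3 rose by 2.47 in UT cells (q = 9.29e-07), while the vit C difference was 0.43 (q = 0.111).

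**Figure D3:**
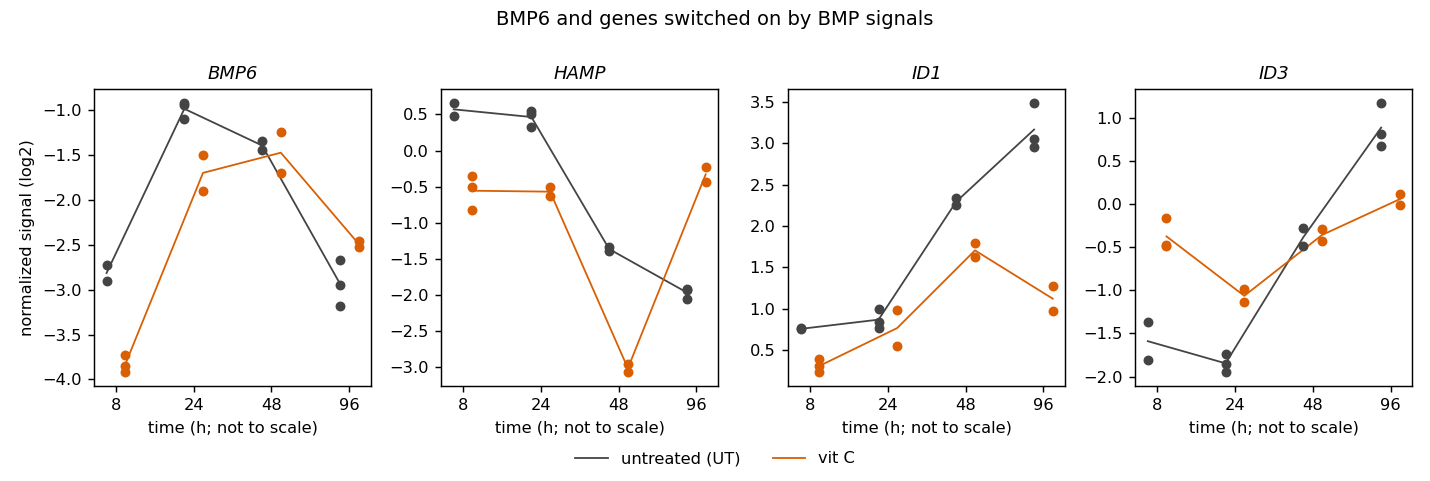
Normalized log2 signal (y axis, own scale for each gene) of BMP6 and of the target genes HAMP, ID1 and ID3 at 8, 24, 48 and 96 h (x axis, evenly spaced). Points are arrays, dark grey for UT and orange for vit C, and lines join group means. HAMP is lower with vit C up to 48 h and higher at 96 h, ID1 is 4.13-fold lower with vit C at 96 h, and ID3 is higher with vit C at 8 h.

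Of the other target genes, CDKN1A, which encodes a cell cycle inhibitor, fell at 96 h by both its probes (-1.15, SE 0.24, limma q = 0.0130, and -1.45, SE 0.35, q = 0.0270). BHLHB2, a transcriptional repressor now named BHLHE40, fell by 1.01 (SE 0.30, q = 0.0408). MSX1, a homeobox gene, fell by 1.00 in 1 probe (SE 0.24, q = 0.0239), while its brightest probe gave -0.03 (SE 0.62, q = 0.978). The calls of all 3 genes were lost without vit C replicate 1 or 2 at 96 h. They were also lost without UT replicate 2 for CDKN1A (-1.44 to -0.95 and, by the second probe, which was lost without UT replicate 1 too, -1.76 to -1.26), without UT replicate 1 or 3 for BHLHB2 (-1.23 to -0.83) and without UT replicate 1 or 2 for MSX1 (-1.13 to -0.87). The BHLHB2 call was also lost with quantile normalization (-1.04), normexp (-0.98), the percentile over detected probes (-0.92), the floor of 20 units or without dim probes, and that of MSX1 with normexp (-0.84), the percentile over detected probes (-0.91) or slide as a random block (-0.99).

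Among the other ligands, GDF15, a stress-induced hormone of the family, fell at 24 and 96 h. Its UT arrays read 8.74 and 8.99 at 8 h, 9.53, 8.84 and 9.21 at 24 h, 7.97 and 8.03 at 48 h, and 7.44, 6.89 and 5.98 at 96 h, against 8.47, 8.52 and 8.77, then 7.47 and 7.38, then 6.88 and 6.95, then 4.36 and 4.63 with vit C. With vit C, GDF15 fell by 1.77 at 24 h (SE 0.32, limma q = 0.0156) and fell by 2.27 at 96 h (SE 0.32, q = 0.00103), a 4.83-fold lower mean. The 96 h call held with any 1 array left out, and that at 24 h was lost without UT replicate 1 or vit C replicate 1 or 2 (-1.94 to -1.60). BMP8B fell by 1.54 at 24 h (SE 0.31, q = 0.0244), with UT arrays at -1.32, -0.84 and -1.28 and vit C arrays at -2.23 and -3.14. The BMP8B call was lost without UT replicate 2 or 3 or vit C replicate 2, with differences of -1.99 to -1.08. The median difference of the 25 other ligands on the array was -0.18, -0.52, -0.21 and -0.45 at the 4 time points, beside -0.05, -0.13, -0.02 and -0.15 over all genes.

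DCN encodes decorin, a matrix proteoglycan that binds TGF-β and holds it from its receptors. It was near background at 8 h in both treatments, and UT arrays read -1.44 and -1.15 at 48 h and -0.64, -0.58 and 0.35 at 96 h, against 1.11 and 1.00 and then 2.28 and 2.09 with vit C. DCN rose with vit C by 2.35 at 48 h (SE 0.42, limma q = 0.00824) and by 2.48 at 96 h (SE 0.38, q = 0.00189), a 5.57-fold higher mean. The 96 h call held with any 1 array left out, and that at 48 h was lost without UT replicate 1 or vit C replicate 1 or 2 (2.20 to 2.49). DCN is also a fibroblast marker. Of the 6 fibroblast markers, PDGFRA and THY1 were measured on all 19 arrays, COL1A1 on 5, COL3A1 on 2 and COL1A2 on 0. Vit C minus UT at 48 and 96 h was 1.78 (SE 0.54) and 0.71 (SE 0.50) for COL1A1, 1.25 (SE 0.52) and -0.69 (SE 0.48) for THY1, and -0.19 (SE 0.36) and -0.10 (SE 0.33) for PDGFRA. For COL3A1 it was -1.69 (SE 0.86) and -1.45 (SE 0.78), and for COL1A2 0.05 (SE 0.51) and 0.00 (SE 0.47), near background. The summed linear level of these 5 markers, in units of the array's 75th percentile signal, ran from 1.79 to 2.86 on UT and from 5.25 to 6.23 on vit C arrays at 8 h, from 3.60 to 4.13 and from 4.91 to 7.64 at 24 h, from 5.86 to 6.50 and from 7.28 to 9.75 at 48 h, and from 3.06 to 5.16 and from 2.46 to 2.51 at 96 h. It was above that of UT cells at 8, 24 and 48 h and below it at 96 h. The sum joins probes whose levels are not comparable, and the 2 measured on all arrays, PDGFRA and THY1, make up most of it. THY1 differed by 1.75 (SE 0.48) at 8 h, when DCN was near background. The part of other cells in the DCN result was not tested.

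Inside the cell, SMAD5, a transducer of BMP signals, rose at 96 h by 1.10 (SE 0.29, limma q = 0.0333), with UT arrays at -1.96, -2.06 and -1.47 and vit C arrays at -0.76 and -0.70. SKI, a repressor that binds SMADs, rose at 96 h by 2.18 in 1 of its dimmer probes (SE 0.43, q = 0.00955), but its brightest probe gave 0.24 (SE 0.27, q = 0.618). ITGB8, an integrin chain that frees TGF-β from its latent form, rose at 48 h by 1.09 in 1 probe (SE 0.25, q = 0.0264), with 0.93 (SE 0.32, q = 0.142) in its brightest. SMAD3, which carries the TGF-β and activin signal, was lower with vit C at all 4 time points without reaching the fold threshold, at -0.58, -0.56, -0.57 and -0.75 (q = 0.174, 0.140, 0.150 and 0.0264). The SMAD5 call was lost without UT replicate 1 or 2 or vit C replicate 1 or 2 (0.98 to 1.28), the SKI call without UT replicate 3 or vit C replicate 1 (1.69 to 2.57), and the ITGB8 call without any 1 of its 4 arrays (0.98 to 1.20). With normexp all 3 calls were lost, at 0.85 for SMAD5, 1.36 for SKI and 0.62 for ITGB8, and that of ITGB8 was also lost with the floor.

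Time in culture was compared within each treatment. In UT cells 15 pathway genes rose and 5 fell from 8 to 48 h among 93 tested (8.93% of all genes were called), and 14 rose and 15 fell from 8 to 96 h among 92 (16.1%). In vit C cells 23 rose and 10 fell by 48 h among 92 (13.1%), and 17 rose and 20 fell by 96 h among 97 (28.9%). With slide as a fixed term the counts were 14 higher and 10 lower in UT cells at 96 h and 21 higher and 9 lower in vit C cells at 48 h, and both vit C arrays at 96 h lay alone on slide 4, so slide and time cannot be told apart there. At 96 h against 8 h in vit C cells the split was 20 higher and 16 lower with quantile normalization.

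FN1, which encodes the matrix protein fibronectin, a long-known TGF-β target, rose most in UT cells, by 6.50 at 48 h (90.7-fold, limma q = 1.06e-07) and by 6.36 at 96 h (q = 3.15e-08), and it rose by 6.62 (q = 1.83e-08) and 6.72 (q = 1.11e-08) in vit C cells. DCN rose by 4.29 at 48 h (q = 1.38e-05) and 5.30 at 96 h (q = 2.76e-07) in UT cells and by 6.32 (q = 7.64e-08) and 7.46 (q = 1.07e-08) in vit C cells. At 8 h DCN was well above background on 1 of the 2 UT arrays and 1 of the 3 vit C arrays, so the sizes of these rises rest on dim signals. FST encodes follistatin, which binds activin A and blocks it. FST rose by 3.68 at 48 h (SE 0.30, q = 2.89e-06) and by 4.40 at 96 h (SE 0.28, q = 9.54e-08) in UT cells, and by 3.55 (q = 7.81e-07) and 3.15 (q = 1.25e-06) in vit C cells. INHBA was highest at 48 h. At 96 h the FST arrays of UT cells read 0.44, 0.14 and -0.03 and those of vit C cells -0.73 and -0.62. Among the strongest rises in vit C cells were also CTGF, a matricellular TGF-β target now named CCN2, at least 12-fold higher at 48 h than at 8 h (q = 5.98e-07), and ATOH8, a transcription factor gene, at least 8.82-fold higher at 96 h (q = 9.89e-06). Both were not well above background on any vit C array at 8 h.

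SMAD3 fell in both treatments, by 2.21 in UT cells (SE 0.20, limma q = 6.69e-06) and by 2.20 in vit C cells (SE 0.18, q = 1.29e-06) from 8 to 48 h, and its second probe fell by 2.76 and fell by 2.55. SMAD9, a transducer of BMP signals, fell by 1.56 in UT cells at 48 h (q = 0.0384), and in vit C cells it was not well above background at 48 h and was at least 4.68-fold lower than at 8 h (q = 4.88e-05). In vit C cells GDF15 fell by 4.09 from 8 to 96 h (17.0-fold, limma q = 4.88e-07) and CDKN1A fell by 2.54 (q = 2.75e-06).

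**Figure D4:**
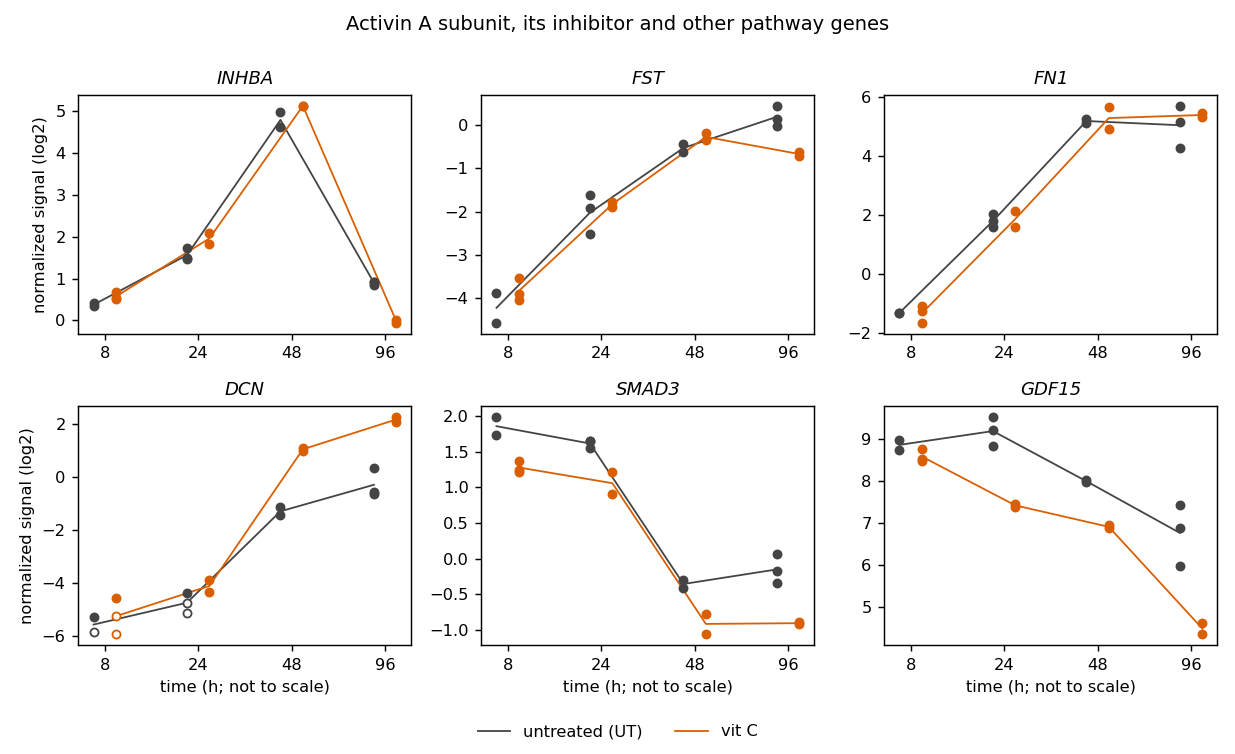
Normalized log2 signal (y axis, own scale for each gene) of INHBA and of 5 pathway genes at 8, 24, 48 and 96 h (x axis, evenly spaced). Points are arrays, dark grey for UT and orange for vit C, filled where well above background and open where not, and lines join group means. INHBA is highest at 48 h and low again at 96 h, FST and FN1 stay high at 96 h, DCN is higher and GDF15 lower with vit C at 96 h, and SMAD3 is lower at 48 and 96 h than at 8 h in both treatments.

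Slide and vit C overlap in these comparisons. With slide as a fixed term, 0 pathway genes were called by limma at 8, 24 and 48 h (7, 5 and 10 at an unadjusted p with the same fold threshold). Of the genes called without the term, HAMP was among the 7 at 8 h, DCN, ITGB8 and HAMP were among the 10 at 48 h, and 0 were among the 5 at 24 h. At 96 h the term could not be fitted because slide and treatment cannot be told apart there. Under that fit HAMP differed by -1.05, -0.96 and -1.63 (SE 0.31, 0.31 and 0.35) at the first 3 time points. DCN at 48 h differed by 1.88 (SE 0.75) and GDF15 at 24 h by -0.76 (SE 0.46). Among the ligands TGFB3 gave -1.16, -1.40 and -2.02 (SE 0.29, 0.29 and 0.33), INHBA 0.23, 0.43 and 0.37 (SE 0.31, 0.31 and 0.35), and BMP6 -1.05, -0.74 and 0.12 (SE 0.34, 0.34 and 0.38), so that the sign of BMP6 turned at 48 h. The 8 and 48 h arrays of UT cells all lay on slide 1, and their comparison does not meet this limit.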

How the data were processed

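RNA from 19 cultures of PMA-differentiated THP-1 cells was read on one-colour Agilent arrays, 1 array per biological replicate; per the study's methods, samples of lower RNA integrity had been set aside. The deposited scanner files hold spot intensity values that Agilent Feature Extraction 10.5.1.1 made, per the file headers with spatial and multiplicative detrending on, background correction off and surrogates on. The authors also deposited log2 values scaled to the 75th percentile, whose correlation with the values used here was at least 0.999909 on every array.

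From the 51538 spots per array that were not controls, 30 to 79 outlier spots were left out, and 0 were saturated. Processed signals were turned to log2, the 75th percentile of the array was subtracted, and spots of 1 probe were averaged, which gave 50238 probes. Linear models were fitted to all 19 arrays and 8 groups with limma 3.58.1 in R 4.3.3. Per comparison, genes whose probes had opposite signs were removed, as in the study's methods, p-values were adjusted by Benjamini-Hochberg over all remaining probes, and genes past a log2 difference of 1 with q up to 0.05 were called. limma was used in place of the methods' t-test, which was run as an alternative. A limma F test asked whether the vit C effect differed between time points. A gene is represented by its brightest probe unless another is named, and well above background is the scanner software's own flag. A bound on a fold sets the mean of the bright group against, on each array of the dim group, the higher of its lowest signal well above background and the probe's own.

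The 8 genes, the 7 pathway lists (111 genes) and the marker lists were chosen with earlier results of these data known. Named pathway genes are those called for vit C by a probe well above background throughout 1 of the groups or, for a list with none, the 2 with the largest average vit C effect. To these were added the 3 largest rises and the 3 largest falls of each comparison over time. Also added were the 2 genes closest by Pearson r to each of the 8 genes except BMP4, which was not well above background on all arrays. Alternatives were the methods' t-test, quantile normalization, normexp background correction (offset 50), another reference for the 75th percentile, a floor of 20 units, leaving out dim probes, keeping opposing probes, slide as a fixed or a random block, a replicate block, the deposited log2 values, the mean over probes, and leaving out each array. The floor of 20 units was set on signals brought to a common 75th percentile, not on the raw signals of each array. An unadjusted limma p and a comparison within slide 1 were added after the data had been seen. Values of 2 genes that these rules and lists would name are not reported here. The number of arrays limits the precision. Promoter windows and gene positions are those of RefSeq on GRCh38.p14.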

Additional observations from a re-analysis of the deposited data

Results flagged for a closer look

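Vit C effects on 3 pathway genes differed between time points in the limma F test. For ID1 the vit C minus UT difference was -0.45, -0.10, -0.60 and -2.05 at 8, 24, 48 and 96 h (q = 0.0153). For ID3 it was 1.21, 0.78, 0.03 and -0.83 (q = 0.0126). For HAMP it was -1.13, -1.03, -1.65 and 1.64 (q = 0.000143). The HAMP result held with any 1 array left out, those of ID1 and ID3 were lost without either vit C array at 96 h (q up to 0.106 and 0.0683), and all 3 were lost with a replicate block. The vit C arrays at 96 h were the only arrays on slide 4. A vit C effect at 96 h thus cannot be told apart from slide, and leaving out arrays does not meet this limit.

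Vit C arrays of 2 ligands stood on opposite sides of the UT arrays at different times. At a single time point 18.1% to 28.7% of all genes had vit C arrays wholly below the UT arrays, and 10.7% to 22% wholly above. The share of all genes with both was not counted, so nothing is read from these 2 genes. BMP6 was lower on all vit C arrays at 8 h (-1.02) and 24 h (-0.71) and higher on all of them at 96 h (0.44). With a normexp background correction the BMP6 differences were -0.43 at 8 h and 0.03 at 96 h. INHBA was higher on all vit C arrays at 8, 24 and 48 h (0.20, 0.40 and 0.34) and lower on all of them at 96 h (-0.92). The difference between time points was not tested for these 2 genes, which were chosen from these values. Both vit C arrays at 96 h lay alone on slide 4, so vit C and slide cannot be told apart there.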

How the results depend on the processing

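The counts of pathway genes called for vit C against UT were 2, 3, 3 and 13 at 8, 24, 48 and 96 h, and 3 genes passed the F test. After Benjamini-Hochberg adjustment the methods' t-test called 0 genes at 8, 24, 48 and 96 h, 0 in UT cells at 48 h against 8 h (20 by limma) and 1 at 96 h against 8 h (29 by limma), while at an unadjusted p it called 6, 8 and 6 at 8, 24 and 48 h. limma at an unadjusted p called 7, 13, 9 and 21 at the 4 time points. With normexp background correction the counts were 0 at 8 h, 1 at 48 h, 5 at 96 h, 12 for UT cells at 48 h against 8 h and 6 in the F test. Signals floored at 20 units gave 5 at 24 h and 7 in the F test, leaving out dim probes gave 5 at 24 h, and the 75th percentile over detected probes gave 8 at 96 h. Slide as a fixed block gave 0 at 8, 24 and 48 h. The replicate block gave 0 at 8 and 24 h, 21 at 96 h and 0 in the F test (q = 0.109 for HAMP and 0.115 for ID1 and ID3). Leaving out 1 array gave 0 to 2 at 8 h, 1 to 3 at 24 h, 1 to 2 at 48 h and 1 to 6 in the F test. At 96 h it gave 5 without vit C replicate 1 to 22 without UT replicate 3. For UT cells at 48 h against 8 h it gave 12 to 15. Where 1 array of a group remained, it was taken to vary like the other groups. The cause of these shifts was not tested. None of the 18 vit C differences run gene by gene (calls by a probe well above background throughout 1 of the groups) changed sign, and those over time were run as counts. Of the single gene calls under the alternatives, 215 kept their side of the threshold and 96 lost it. HAMP, ID1, DCN and GDF15 at 96 h lost theirs only under the methods' t-test. Over all genes at 96 h, 3374 were called (21.4% of them higher), against 1002 (56.2%) after quantile normalization, 1452 (50.9%) with the percentile over detected probes, 805 with normexp, 769 (61.9%) with the floor, 1086 (57.2%) without dim probes and 5734 with the replicate block. The median difference of all genes at 96 h was -0.15, against -0.04 after quantile normalization and -0.40 with normexp, and at 24 h it was -0.13, against -0.01 and -0.23.

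Same-numbered arrays of UT and vit C cells correlated at -0.12 to 0.095 in their deviations from the group means. With so few arrays per group, this cannot show whether the flasks were paired. A replicate block could not be fitted for comparisons over time, nor a fixed slide block for comparisons with vit C cells at 96 h or for the F test. Dim probes carry the least: BMP4 and late TGFB3 lie near background.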
